A study of Mus musculus with 18 samples.

Results

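The genes described here are 9 genes that ON bipolar cells of the retina use to signal: Grm6, Trpm1, Nyx, Gpr179, Rgs11, Lrit3, Prkca, Pcp2 and Gnao1. They were chosen by symbol, and all 9 were found among the 23420 gene symbols counted and among the 15196 genes that passed the filter on low counts. Whole retinas of 9 wild-type BALB/cJ mice, an albino strain, were sequenced, at 8 to 10 weeks of age. The 3 naïve mice received neither light nor treatment. The 3 vehicle mice and the 3 TD139 mice were exposed to white light of 15000 lux for 1 h after 16 h of dark adaptation, and their retinas were taken 4 days later. TD139 is a thiodigalactoside derivative that inhibits galectin-3, a sugar-binding protein. TD139, dissolved in DMSO, was injected intraperitoneally each day at 15 mg/kg from 1 day before the light. The vehicle mice were injected with DMSO on the same days. No naïve mouse was treated, so light and treatment, DMSO included, cannot be told apart in a comparison with naïve mice. Where vehicle mice are compared with naïve mice, "after light" stands for light with DMSO.

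ON bipolar cells are the interneurons that pass signals from rods and cones to the inner retina when light comes on. Photoreceptors release glutamate in the dark. It binds the receptor mGluR6 (Grm6) on the dendrites of these cells, and the G protein Go (its alpha subunit is the product of Gnao1) then keeps the cation channel TRPM1 closed. In light, glutamate falls and the channel opens, which regulators of G protein signalling such as RGS11 speed up by ending the action of Go. GPR179 holds these regulators at the dendritic tips, nyctalopin (Nyx) and LRIT3 are leucine-rich repeat proteins needed to place TRPM1 there, and LRIT3 is also known to be made in photoreceptors. Protein kinase C alpha (Prkca) is the usual stain for rod bipolar cells and Pcp2 is a modulator of Go found in ON bipolar cells, whereas Gnao1 is active in many other neurons of the retina. Loss of Grm6, Trpm1, Nyx, Gpr179 or Lrit3 is known to cause congenital stationary night blindness.

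In GENCODE M21 on build GRCm38, Grm6 lies at chr11:50850685-50866208, Trpm1 at chr7:64153835-64269775, Nyx at chrX:13466110-13489313, Rgs11 at chr17:26202951-26211324 and Gnao1 at chr8:93809966-93969388 on the plus strand. Gpr179 at chr11:97332109-97352077, Lrit3 at chr3:129787881-129804030, Prkca at chr11:107933387-108343928 and Pcp2 at chr8:3623371-3625545 lie on the minus strand. Sequences just before RefSeq starts of Grm6, Nyx and Lrit3 are shown because these genes were called higher in TD139 than in vehicle mice both before and after the correction for transcript length described below. Each is the 250 bases before the start on build GRCm38.p6, written 5′ to 3′ on the strand of the gene. The RefSeq start of Grm6 is that of GENCODE, whereas those of Lrit3 and Nyx lie 106 and 5020 bases before the GENCODE starts given above, so the Nyx window is not next to its GENCODE start. Capitals mark TAATC on either strand, the core bound by homeodomain factors of the OTX and CRX type.
Grm6, chr11:50850435-50850684: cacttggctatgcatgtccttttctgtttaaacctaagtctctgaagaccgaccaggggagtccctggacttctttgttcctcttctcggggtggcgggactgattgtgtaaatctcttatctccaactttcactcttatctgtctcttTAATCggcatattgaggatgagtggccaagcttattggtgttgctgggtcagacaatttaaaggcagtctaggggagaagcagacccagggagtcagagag
Nyx, chrX:13460840-13461089: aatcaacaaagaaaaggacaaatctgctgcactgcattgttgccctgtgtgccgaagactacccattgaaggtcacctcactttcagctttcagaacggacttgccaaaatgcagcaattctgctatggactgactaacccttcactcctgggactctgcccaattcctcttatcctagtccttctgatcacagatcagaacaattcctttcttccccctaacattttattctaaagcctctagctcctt
Lrit3, chr3:129804137-129804386: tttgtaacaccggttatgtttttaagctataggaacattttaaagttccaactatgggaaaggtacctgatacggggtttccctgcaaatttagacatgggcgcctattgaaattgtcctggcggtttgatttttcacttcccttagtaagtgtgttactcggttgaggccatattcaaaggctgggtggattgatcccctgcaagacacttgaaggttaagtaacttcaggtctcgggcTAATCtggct
The windows of Grm6 and Lrit3 each held TAATC 1 time and that of Nyx did not hold it. Over all 32817 windows of this length, 19.8% held TAATC, 6.25% held TAATCC (which contains TAATC) and 4.84% held TAATTA. RefSeq windows were at hand for 8 of the 9 genes, 12 windows in all, because Trpm1 has 2 starts and Pcp2 has 4 that overlap each other. Of these 12, 5 held TAATC, in Grm6, Trpm1 (both starts), Lrit3 and Pcp2 (1 of its starts). TAATCC was found at 1 start of Trpm1 and TAATTA at 1 start of Pcp2. The windows of Nyx, Gpr179, Prkca and Gnao1 held none of them. A match describes the letters of the window and not a bound site.

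Between 26171887 and 30201517 reads were counted on genes in a mouse. Values are given as CPM, counts scaled to 1e+06 reads after scaling each library by the TMM method, and a count of 3 stood for 0.101 to 0.119 CPM, a floor that covers counting error only. All 9 genes lay far above it. The lowest count of any of them in a mouse was 247, for Lrit3 in naïve mouse 1. Of the 7 other markers of ON and rod bipolar cells (among them the transcription factors Isl1, Bhlhe23 and Sebox), all were measured above the filter, and their summed level was 510 to 579 CPM in naïve, 488 to 573 in vehicle and 509 to 529 in TD139 mice. In whole retina, fewer cells of a type and less RNA per cell cannot be told apart.

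Compared between genes, levels need to be set against transcript length, and they are then given as CPM per kilobase. The length is that of 1 annotated transcript per gene, 470 bases for Pcp2 and 3462 for Gnao1. All annotated exons cover 1828 bases for Pcp2 and 11053 for Gnao1, so the order depends on this choice. The correction for length described below uses the same lengths. In naïve mice Pcp2 was the highest, at 728 ± 188 CPM per kilobase (SD, n = 3), followed by Gnao1 at 140 ± 8.95 and Rgs11 at 61.8 ± 5.33. Trpm1 at 43.7 ± 4.31, Grm6 at 42.4 ± 8.49 and Prkca at 38.2 ± 6.23 overlapped as neighbours in this order. Gpr179 lay below them at 29.4 ± 2.19. The scaffold genes Lrit3 at 8.06 ± 4.22 and Nyx at 2.48 ± 0.62 CPM per kilobase were the lowest. Rgs11, Grm6 and Trpm1 overlapped as neighbours in TD139 mice.
The exons of Pcp2 share 941 of 1828 bases with Pet100, a gene on the opposite strand, which is 51.5% of them, and those of Rgs11 share 3.28% with Arhgdig. The library kit marks the strand of the RNA, but the strand setting of the counting is not given in the sources used here, so reads of Pcp2 and Pet100 may not be separable.

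A trend with transcript length lay under all comparisons with TD139 mice. Across 15066 genes, the log2 fold change of TD139 against vehicle mice followed transcript length with a Spearman correlation of 0.49, against 0.60 for TD139 and −0.10 for vehicle mice when set against naïve mice. Genes are not independent replicates, and no test was made of it. Within single mice, the deviation of genes from their mean followed length with a correlation of −0.52, −0.28 and 0.20 in naïve, −0.15, −0.41 and −0.32 in vehicle and 0.43, 0.48 and 0.50 in TD139 mice 1 to 3. Reads on no gene were 19.1 to 19.9% in naïve, 16.5 to 19.4% in vehicle and 21.3 to 22.8% in TD139 mice, and ambiguous reads were fewest in TD139 mice, at 0.303 to 0.363% against 0.374 to 0.471% in the other mice. The TD139 libraries thus stood apart in these measures too, and the part of RNA quality or library preparation in the results was not tested. In the trend with length, naïve mouse 3 stood apart from the other naïve mice on the side of the TD139 mice. Among the 9 genes, Pcp2 has the shortest transcript (470 bases) and Gpr179 (9219 bases) and Prkca (8409 bases) the longest. Results are therefore also given after each mouse was corrected for this trend and for the GC content of transcripts.

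**Figure D1:**
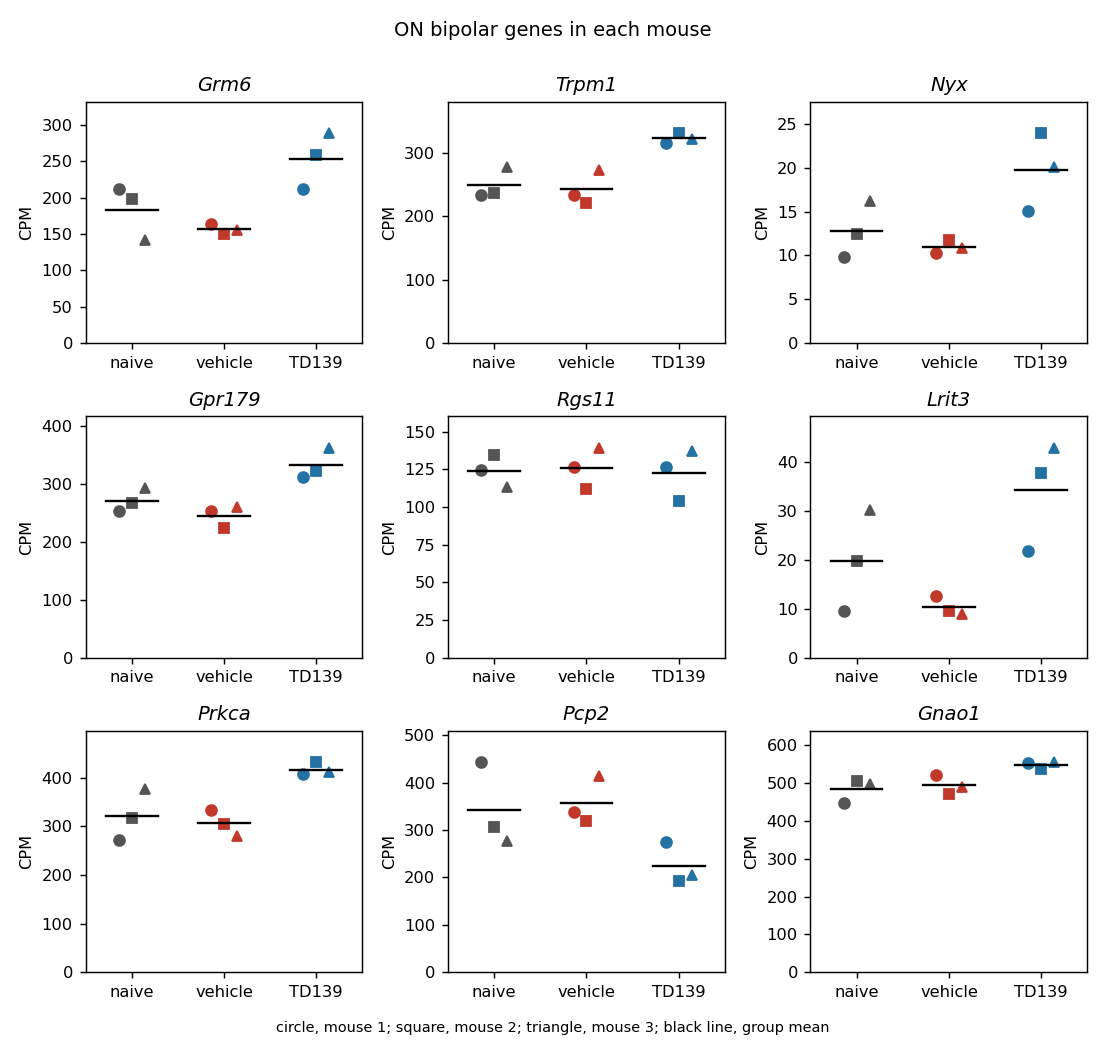
Level of each of the 9 genes (CPM, linear axis from 0) in 3 naïve, 3 vehicle and 3 TD139 mice; each point is a mouse and each black line a group mean. The TD139 mice lie above the vehicle mice without overlap for Grm6, Trpm1, Nyx, Gpr179, Lrit3, Prkca and Gnao1, below them for Pcp2, and among them for Rgs11.

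The comparison of vehicle with naïve mice asks how the genes stood 4 days after light, with injections of DMSO. None of the 9 passed the test. By edgeR's quasi-likelihood test, 0 of 9 had an adjusted p-value under 0.05, whereas 4.91% of all tested genes were called higher and 2.89% lower. At an unadjusted p under 0.05 there was 1 gene, Lrit3, and 27.6% of all tested genes. DESeq2 called Lrit3 alone, as lower, where it called 8.97% of the genes it adjusted a p-value for higher and 7.04% lower. Limma voom called none of the 9, and 12.1% of all genes higher and 10.2% lower. The 9 genes had a median log2 fold change of −0.07, where all genes had −0.0017. For no gene of the 9 did all vehicle mice lie on 1 side of all naïve mice, as they did for 16.7% of all tested genes on the higher and 16.6% on the lower side.
For Grm6, the receptor, the naïve mice had 211, 198 and 142 CPM and the vehicle mice 164, 150.2 and 156. The vehicle mice lay within the naïve range, and the log2 fold change was −0.23 ± 0.15 (SE, adjusted p = 0.34, edgeR). For Trpm1, the channel that carries the light response, the values were 234, 237 and 278 CPM against 234, 220.2 and 273, with a log2 fold change of −0.04 ± 0.11. The channel gene thus differed between the groups by less than it did between mice of either group.
Lrit3 had the lowest fold change. Its level was 9.49, 19.6 and 30.2 CPM in naïve mice and 12.5, 9.57 and 8.80 in vehicle mice, a log2 fold change of −0.94 ± 0.41 (adjusted p = 0.17, edgeR). The naïve mice were spread widely, and naïve mouse 1 lay at the level of the vehicle mice. With DESeq2 the log2 fold change of Lrit3 was −0.94 with an adjusted p of 0.043.
The other 6 genes had log2 fold changes between −0.23 (Nyx) and 0.06 (Pcp2). Adjusted p-values of all 9 genes ranged from 0.17 to 0.92 by edgeR. Leaving out any single mouse, naïve mouse 3 included, gave 0 calls among the 9 genes by edgeR. Those 9 fits called 0.00647% to 7.56% of all tested genes higher and 0 to 5.28% lower.

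TD139 and vehicle mice both received light and injections and differed in the drug. Most of the 9 genes differed between them. Grm6, Trpm1, Nyx, Gpr179, Lrit3 and Prkca were higher and Pcp2 was lower in TD139 mice, by edgeR's quasi-likelihood test with adjusted p-values under 0.05, and Rgs11 and Gnao1 did not pass. Of all tested genes, 17.2% were called higher and 16.2% lower in this comparison. The 9 genes had a median log2 fold change of 0.44, where all genes had −0.02. The TD139 mice lay wholly above the vehicle mice for 7 of the 9 genes and wholly below them for 1, against 26% and 25.4% of all tested genes.
The receptor gene Grm6 had 212, 258 and 289 CPM in TD139 mice against 164, 150.2 and 156 in vehicle mice. Every TD139 mouse was above every vehicle mouse. The log2 fold change was 0.69 ± 0.15, or 1.61-fold (adjusted p = 0.0088, edgeR).
The channel gene Trpm1 had 316, 331 and 322 CPM in TD139 mice against 234, 220.2 and 273 in vehicle mice. These groups were apart as well, with vehicle mouse 3 the closest to the others. The log2 fold change was 0.41 ± 0.11, or 1.33-fold (adjusted p = 0.015, edgeR).
The genes of the proteins that assemble the complex at the dendritic tip were also higher. Lrit3 had 21.8, 37.8 and 42.8 CPM in TD139 mice against 12.5, 9.57 and 8.80, the greatest fold change of the 9 genes at 1.73 ± 0.41 on the log2 scale, or 3.32-fold (adjusted p = 0.015, edgeR). Nyx, whose protein nyctalopin is anchored at the same membrane, had 15.1, 24.0 and 20.1 CPM against 10.3, 11.8 and 10.8. Its log2 fold change was 0.85 ± 0.21, or 1.80-fold (adjusted p = 0.013, edgeR). TD139 mouse 1 was the lowest of its group for Lrit3 and for Nyx. Gpr179, the anchor of the regulators, had 312, 323 and 362 CPM against 253, 223 and 259. Its groups did not overlap, and the log2 fold change was 0.44 ± 0.10, or 1.36-fold (adjusted p = 0.011, edgeR).
The regulator gene Rgs11 did not follow. It had 127, 104 and 137 CPM in TD139 mice and 127, 112 and 139 in vehicle mice, a log2 fold change of −0.04 ± 0.12 (adjusted p = 0.82, edgeR). Gnao1, for the G protein itself, had 555, 538 and 555 CPM against 521, 472 and 491. The groups were apart by a small step, and the log2 fold change of 0.15 ± 0.09 did not pass the test (adjusted p = 0.21, edgeR).
The 2 genes best known as stains of ON bipolar cells went in opposite directions. Prkca had 408, 432 and 411 CPM in TD139 mice against 333, 304 and 281, a log2 fold change of 0.45 ± 0.12, or 1.36-fold (adjusted p = 0.019, edgeR). Pcp2 had 276, 193 and 204 CPM against 338, 320.2 and 415. Its log2 fold change was −0.67 ± 0.19, or 0.63-fold (adjusted p = 0.024, edgeR). Pet100, which overlaps Pcp2 on the other strand, had 12.5, 11.7 and 10.9 CPM in TD139 mice against 19.3, 21.9 and 22.4, with a log2 fold change of −0.86 ± 0.15 (adjusted p = 0.0057, edgeR). Its counts were 275 to 336 in TD139 mice, where Pcp2 had 5166 to 7434.
Leaving out single mice moved several of these calls. Grm6 was called in all 9 such fits, with adjusted p-values of 0.0026 to 0.047. Without TD139 mouse 3 only Grm6 was called, where 6.8% of all tested genes were called higher and 5.62% lower, and the adjusted p-values were 0.054 for Trpm1, 0.050 for Nyx, 0.052 for Gpr179, 0.054 for Lrit3, 0.056 for Prkca and 0.094 for Pcp2. Without TD139 mouse 2, Grm6 and Gpr179 were called, where the shares of all genes were 5.61% and 4.91%, and those of Trpm1 (0.063), Nyx (0.064), Lrit3 (0.062), Prkca (0.071) and Pcp2 (0.10) were not. Without vehicle mouse 3, Lrit3 (0.064), Prkca (0.070) and Pcp2 (0.089) were not called, where the shares were 8.07% and 8.37%. Without vehicle mouse 2, Trpm1 (0.052) was not, where they were 12.5% and 12%. All log2 fold changes of the 7 called genes had the same sign in all of these fits by edgeR.

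**Figure D2:**
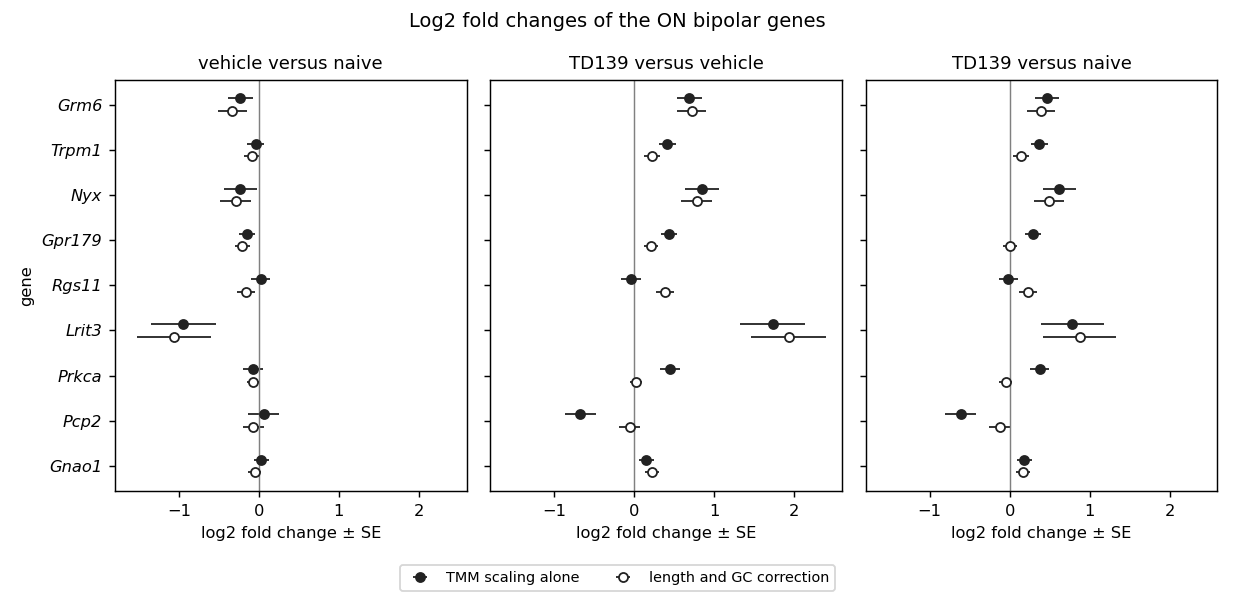
Log2 fold change (x axis) of each of the 9 genes (y axis) in the 3 comparisons, with bars of 1 SE, from TMM scaling alone (filled) and after correction for transcript length and GC content (open). For TD139 against vehicle mice, Grm6, Nyx and Lrit3 keep their place after correction, Prkca and Pcp2 move to near 0 and Rgs11 moves to 0.38.

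The length and GC correction divided the 9 genes. After it, 14.5% of all tested genes were called higher and 7.51% lower in TD139 than in vehicle mice, and the median of all genes was 0.08 on the log2 scale. Of the 9 genes, 4 were higher and 0 lower, with a median of 0.22.
Grm6 kept its difference, at 203, 269.5 and 281 corrected CPM in TD139 against 160.4, 145 and 152 in vehicle mice, with a log2 fold change of 0.72 ± 0.18 (adjusted p = 0.021, edgeR). Lrit3 had a log2 fold change of 1.93 ± 0.47 (adjusted p = 0.029, edgeR) and Nyx one of 0.78 ± 0.19 (adjusted p = 0.018, edgeR). In these genes of the receptor and its leucine-rich repeat partners, the groups still did not overlap.
Trpm1 and Gpr179 lost the call. The log2 fold change fell to 0.22 ± 0.10 for Trpm1 (adjusted p = 0.13, edgeR) and to 0.21 ± 0.09 for Gpr179 (adjusted p = 0.11, edgeR). Corrected values of Trpm1 were 287, 306 and 287 CPM in TD139 and 235, 228 and 290.2 CPM in vehicle mice, so that the groups overlapped.
Prkca and Pcp2, at the long and the short end of the 9 transcripts, showed next to no difference after correction. Prkca had 355, 341 and 329 corrected CPM in TD139 against 346, 338 and 325 in vehicle mice, with a log2 fold change of 0.02 ± 0.08 (adjusted p = 0.87, edgeR). Pcp2 had 316, 284 and 261 against 311, 246 and 339, with a log2 fold change of −0.06 ± 0.13 (adjusted p = 0.78, edgeR). The opposite directions of the stains were thus present only before correction.
Rgs11 gained a call. It had 134, 132 and 162 corrected CPM in TD139 mice against 118, 92.2 and 118, a log2 fold change of 0.38 ± 0.11 (adjusted p = 0.035, edgeR). Gnao1 had a log2 fold change of 0.22 ± 0.09 (adjusted p = 0.085, edgeR).
Among naïve mice, the correction brought Prkca from 272, 317 and 376 CPM to 356, 346 and 358, and left Lrit3 spread, at 9.51, 19.6 and 31.1. Grm6 stayed spread too, at 234, 201 and 141, with naïve mouse 3 the lowest. The spread of Lrit3 and Grm6 among untreated retinas thus remained after correction.

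**Figure D3:**
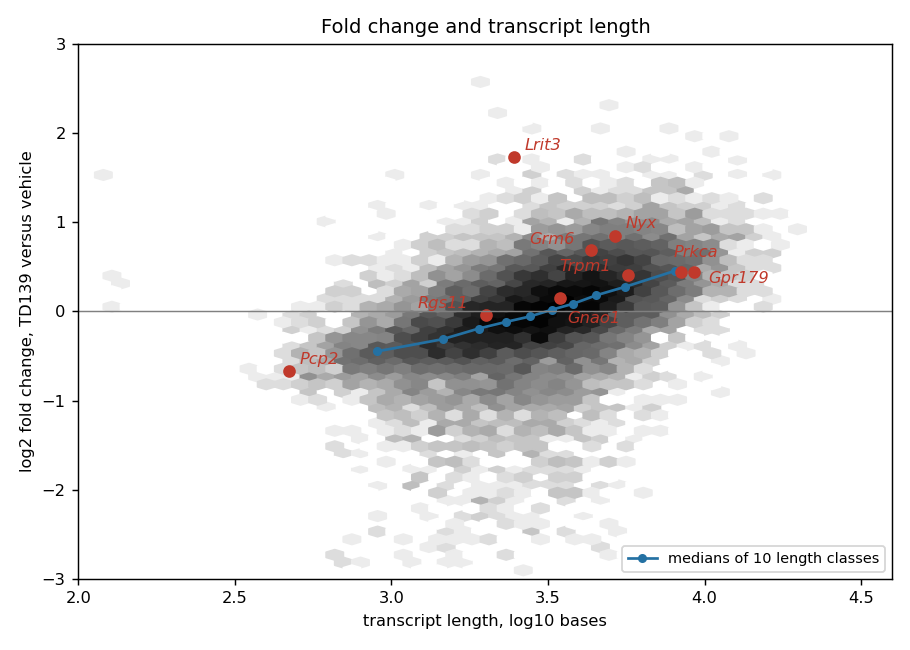
Log2 fold change of TD139 against vehicle mice before correction (y axis) against transcript length in log10 bases (x axis) for all genes with a length (grey, darker where more genes lie), with the 9 genes in red and the medians of 10 length classes of equal size in blue; 164 of 15066 genes lie outside the range drawn. The class median runs from −0.45 for the shortest to 0.45 for the longest transcripts, Prkca and Gpr179 lie on it, Pcp2 lies below it, Rgs11, Gnao1 and Trpm1 lie a little above it, and Lrit3, Grm6 and Nyx lie farther above it.

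**Figure D4:**
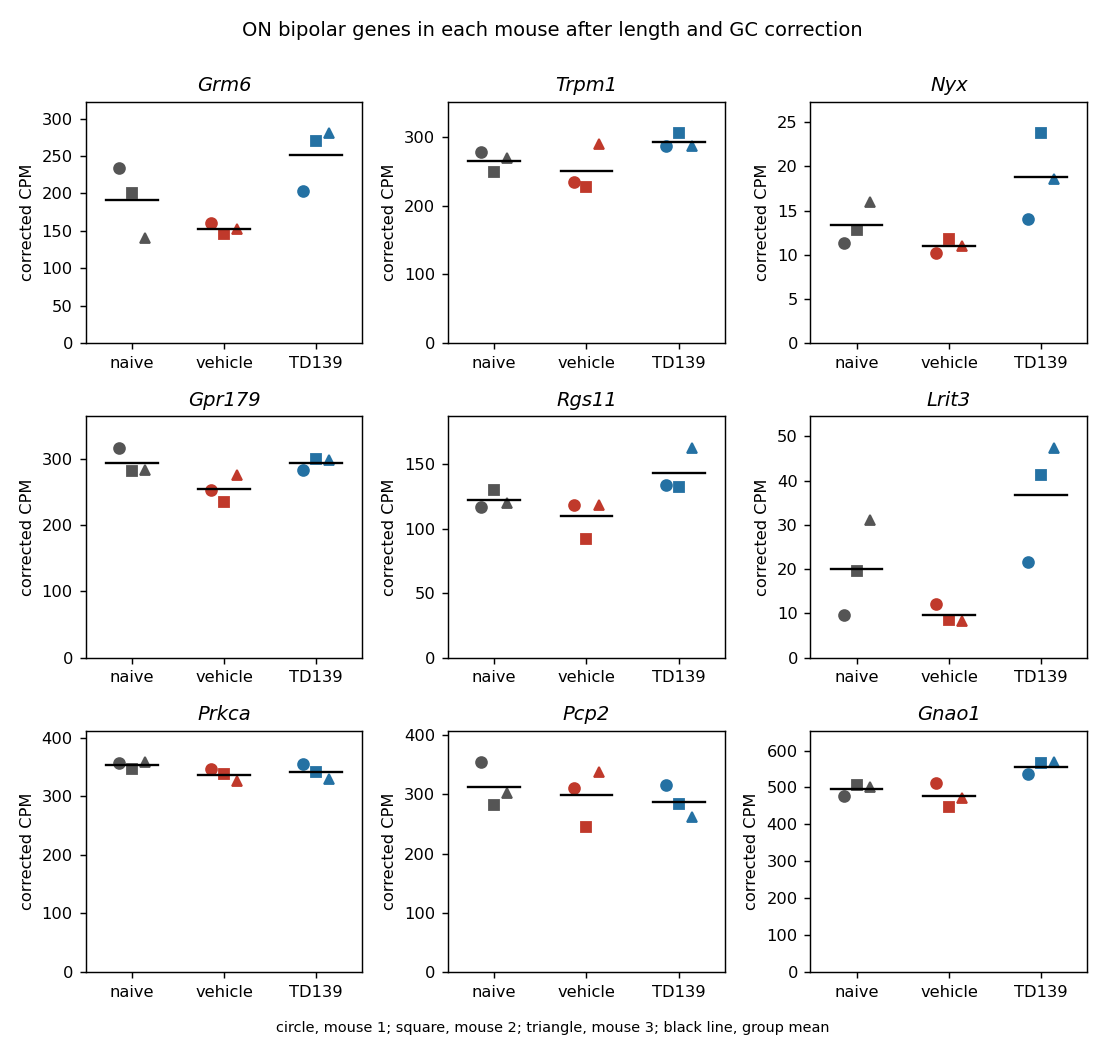
Level of each of the 9 genes after correction for transcript length and GC content (corrected CPM, linear axis from 0), drawn by mouse with group means as black lines. TD139 mice lie above vehicle mice without overlap for Grm6, Nyx, Gpr179, Rgs11, Lrit3 and Gnao1, while the groups overlap for Trpm1, Prkca and Pcp2.

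TD139 mice were also compared with naïve mice. This comparison shares its TD139 mice with the one above and asks whether the light-exposed, treated retina differed from the untreated one. By edgeR's quasi-likelihood test, 0 of the 9 genes had an adjusted p-value under 0.05, against 2.72% of all tested genes called higher and 2.38% lower, and 6 of the 9 had an unadjusted p under 0.05, as had 29.6% of all tested genes. DESeq2 called 5 of the 9 genes higher and 1 lower, against 11.1% and 9.07% of the genes to which it gave an adjusted p-value. Limma voom called 6 higher and 1 lower, against 18.6% and 15.1% of all tested genes.
The TD139 mice lay wholly above the naïve mice for 5 genes and wholly below them for 1, whereas this was so for 15.3% and 16.8% of all tested genes. For Trpm1, the TD139 mice had 316 to 331 CPM and the naïve mice 234 to 278, a log2 fold change of 0.37 ± 0.11 (adjusted p = 0.058, edgeR). Grm6 ranged from 212 to 289 CPM against 142 to 211, with a log2 fold change of 0.46 ± 0.15 (adjusted p = 0.078, edgeR). TD139 mouse 1 and naïve mouse 1 were nearly level in this gene.
Lrit3, at 21.8 to 42.8 CPM against 9.49 to 30.2, overlapped between the groups, and its log2 fold change of 0.79 ± 0.40 did not pass (adjusted p = 0.23, edgeR). Pcp2, at 193 to 276 CPM against 277 to 443, had a log2 fold change of −0.61 ± 0.19 (adjusted p = 0.075, edgeR).
The calls depended on single mice. Without naïve mouse 3, Trpm1 (adjusted p = 0.024), Nyx (0.027), Gpr179 (0.049), Prkca (0.021) and Pcp2 (0.036) were called by edgeR, in a fit that called 9.87% of all tested genes higher and 7.49% lower. Without TD139 mouse 1, Grm6 (adjusted p = 0.038), Nyx (0.037) and Pcp2 (0.038) were, where the shares were 6.74% and 3.97%. After correction for length and GC content none of the 9 was called by edgeR, nor was any other tested gene (14.6% had an unadjusted p under 0.05), and the log2 fold change was 0.00 ± 0.09 for Gpr179 and −0.05 ± 0.08 for Prkca.

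Genes of other proteins of the same cascade were called in both directions. Of 6 partner genes, 2 were higher and 2 lower in TD139 than in vehicle mice, where 17.2% of all tested genes were higher and 16.2% lower, and the median was 0.10 on the log2 scale. After correction for length and GC content 2 were higher (Rgs9bp and Rgs7) and 0 lower, against 14.5% and 7.51% of all tested genes, with a median of 0.22. Gnb3, the beta subunit of the G protein in ON bipolar cells and cones, had 729, 522 and 525 CPM in TD139 against 845, 795 and 1092 in vehicle mice, a log2 fold change of −0.62 ± 0.16 (adjusted p = 0.014, edgeR). Gng13, its gamma partner, fell by 0.74 on the log2 scale with an SE of 0.15 (adjusted p = 0.0071, edgeR). Both of these calls were lost after correction, where their log2 fold changes were −0.17 and −0.07. Gnb3 also lost its call without TD139 mouse 2 (adjusted p = 0.071, edgeR), TD139 mouse 3 (0.068) or vehicle mouse 3 (0.061). Those fits called 4.91% to 8.37% of all tested genes lower. Rgs7, a second regulator of Go in these cells, had a log2 fold change of 0.13 ± 0.09 before and 0.31 ± 0.10 after correction (adjusted p = 0.29 and 0.047, edgeR).
Rgs9bp, the anchor of the regulator RGS9 in photoreceptors, was the only partner called in both comparisons with vehicle mice. The part of photoreceptors in its level was not tested. Rgs9bp had 817, 744 and 988 CPM in naïve, 469, 499 and 407 in vehicle and 660.5, 1147 and 1097 in TD139 mice. It was lower in vehicle than in naïve mice by a log2 fold change of −0.89 ± 0.19 (adjusted p = 0.027, edgeR) and higher in TD139 than in vehicle mice by 1.08 ± 0.20 (adjusted p = 0.0061, edgeR). It kept both calls after correction. With single mice left out, the second call was kept in all 9 fits, and the first was lost without any naïve mouse or without vehicle mouse 1 or 3 (adjusted p = 0.068 to 0.088, edgeR). The fits that lost it called 0 to 0.499% of all tested genes lower, against 2.89% with all mice. Rgs7bp, the anchor of RGS7, was higher in TD139 than in vehicle mice by 0.59 ± 0.12 (adjusted p = 0.0073, edgeR) and than in naïve mice by 0.64 ± 0.12 (adjusted p = 0.041, edgeR), and lost both calls after correction. The call against naïve mice was also lost without naïve mouse 1 (adjusted p = 0.15, edgeR) or 2 (0.13), TD139 mouse 2 (0.16) or 3 (0.14), or vehicle mouse 2 (0.052). In these 5 fits edgeR called no tested gene against naïve mice (18.5% to 28.5% had an unadjusted p under 0.05).

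Genes on the photoreceptor side of the same synapse were counted in the same way. Of 9 such genes, 5 were lower in vehicle than in naïve mice and 6 were higher in TD139 than in vehicle mice, with medians of −0.52 and 0.57 on the log2 scale. Of all tested genes, 2.89% were lower in the first comparison and 17.2% higher in the second. These comparisons share the vehicle mice, so a low level there lowers one value and raises the other. After correction the counts were 7 lower and 7 higher, against 13.7% and 14.5% of all tested genes (6.08% were higher in vehicle than in naïve mice).
Elfn1, which binds mGluR6 across the synapse from rods, had 108, 109 and 123 CPM in naïve, 75.7, 81.9 and 57.7 in vehicle and 97.1, 154 and 148 in TD139 mice. Its log2 fold change was −0.66 ± 0.18 after light (adjusted p = 0.047, edgeR) and 0.89 ± 0.18 for TD139 against vehicle (adjusted p = 0.0071, edgeR). Cacna1f, the calcium channel that drives glutamate release, had values of −0.51 ± 0.12 (adjusted p = 0.029, edgeR) and 0.57 ± 0.12 (adjusted p = 0.0073, edgeR) in the same order. Its subunit Cacna2d4 had −0.52 ± 0.10 (adjusted p = 0.021, edgeR) and 0.67 ± 0.10 (adjusted p = 0.0050, edgeR). Cplx4, a regulator of vesicle release at ribbon synapses, had −0.55 ± 0.13 (adjusted p = 0.029, edgeR) and 0.45 ± 0.13 (adjusted p = 0.020, edgeR). Egflam, which encodes the matrix protein pikachurin of this synapse, passed neither test, with −0.32 ± 0.14 and 0.36 ± 0.14. With any naïve mouse or vehicle mouse 1 or 3 left out, Elfn1, Cacna1f, Cacna2d4 and Cplx4 were not called after light (adjusted p = 0.050 to 0.13, edgeR). Those fits called 0 to 0.499% of all tested genes lower, against 2.89% with all mice. Elfn1 was also not called without TD139 mouse 2 (adjusted p = 0.051, edgeR, with 2.03% of all genes lower) or 3 (0.063, with 1.81%). For TD139 against vehicle, Elfn1, Cacna1f and Cacna2d4 were called in all 9 fits, and Cplx4 was not without TD139 mouse 2 (0.095) or 3 (0.064) or vehicle mouse 1 (0.061) or 3 (0.078). The fits that lost Cplx4 called 5.61% to 14.4% of all tested genes higher. Against naïve mice, none of the 9 genes was called in TD139 mice by edgeR.

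**Figure D5:**
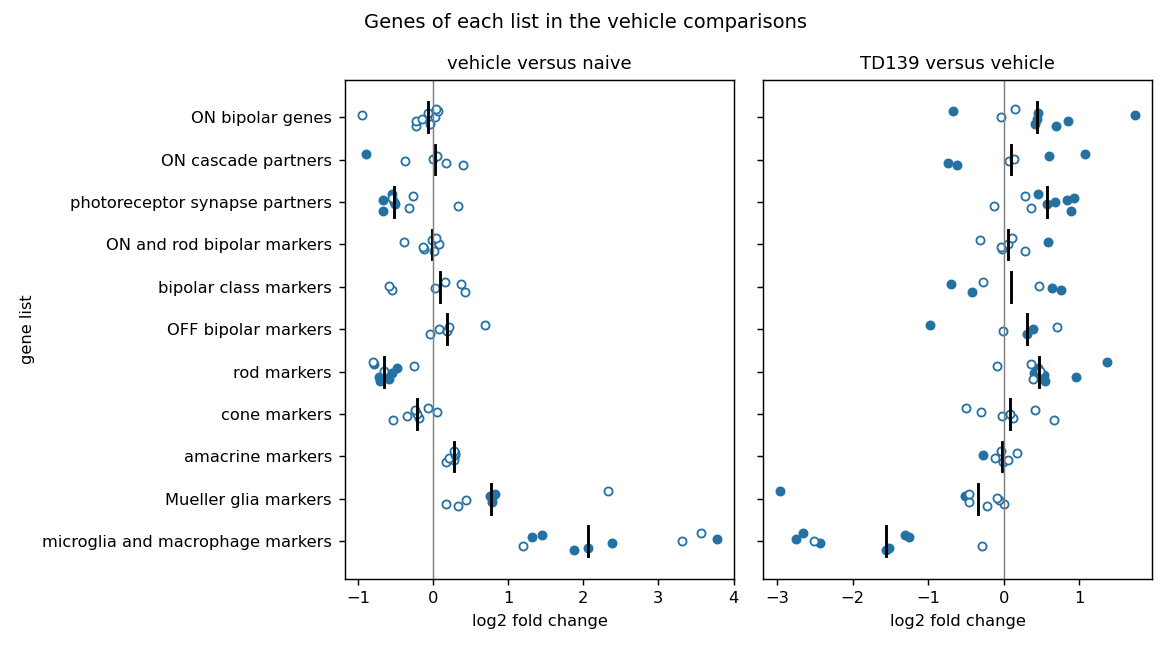
Log2 fold change (x axis) of every tested gene of the lists (y axis) in vehicle against naïve mice and in TD139 against vehicle mice; filled points have an adjusted p-value under 0.05 and black bars are medians. The 9 ON bipolar genes have medians of −0.07 and 0.44, the photoreceptor synapse partners −0.52 and 0.57, and the rod markers −0.65 and 0.46.

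Of 7 other markers of ON and rod bipolar cells, none was called in vehicle against naïve mice, and 1 was higher in TD139 than in vehicle mice, with a median of 0.06, where 17.2% of all tested genes were called higher. Isl1 and Bhlhe23, transcription factors of these cells, had log2 fold changes of 0.27 ± 0.10 and −0.02 ± 0.10. After correction 3 of the 7 were higher, against 14.5% of all tested genes, with a median of 0.32. Of 6 markers of the whole bipolar class, 2 were higher and 2 lower (17.2% and 16.2% of all tested genes), and after correction 1 was higher and 0 lower. Otx2, which photoreceptors also express, was higher by 0.76 ± 0.17 (adjusted p = 0.010, edgeR) and stayed so after correction (0.84 ± 0.18), but was not called without TD139 mouse 2 (adjusted p = 0.050, edgeR). That fit called 5.61% of all tested genes higher. Trnp1 was lower before correction, by −0.70 ± 0.14 on the log2 scale (adjusted p = 0.0071, edgeR). Of 5 markers of OFF bipolar cells, 2 were higher and 1 lower, and none was called after correction. The glutamate receptor gene Grik1 (0.31, adjusted p = 0.019, edgeR) and Tacr3 (0.39, adjusted p = 0.038) were the higher ones. Both lost the call without TD139 mouse 2 (0.059 and 0.12, edgeR) or 3 (0.087 and 0.11) or vehicle mouse 2 (0.053 and 0.081) or 3 (0.067 and 0.14), and Tacr3 without naïve mouse 2 (0.054). These fits called 5.61% to 14.1% of all tested genes higher. Nnat had 35.8, 26.2 and 35.5 CPM in TD139 mice against 45.1, 101 and 46.1 in vehicle mice, where mouse 2 stood far above the others. Its log2 fold change was −0.98 (adjusted p = 0.035, edgeR) with that mouse and −0.49 without it, and without any naïve or any TD139 mouse it was not called (0.055 to 0.13). The fits without a naïve or a TD139 mouse called 4.91% to 19% of all tested genes lower.

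Markers of other cells were counted in the same samples. Of all tested genes, 4.91% were called higher and 2.89% lower in vehicle than in naïve mice. For TD139 against vehicle mice the shares were 17.2% and 16.2%. After correction they were 6.08% and 13.7% in the first comparison and 14.5% and 7.51% in the second. Of 10 rod markers, 7 were lower in vehicle than in naïve mice (median −0.65) and 6 were higher in TD139 than in vehicle mice (median 0.46). Without naïve mouse 2, no tested gene was called lower in vehicle than in naïve mice, so the 7 rod calls were lost. The summed level of the rod markers was 72180 to 81090 CPM in naïve, 41310 to 57490 in vehicle and 58950 to 74710 in TD139 mice, and none was at the floor.
Of 9 microglia and macrophage markers, 6 were higher in vehicle than in naïve mice (median 2.07) and 7 lower in TD139 than in vehicle mice (median −1.56). Of all tested genes, 4.91% and 16.2% were. The summed levels of these markers were 54.4 to 63.1, 205 to 355 and 42.9 to 134 CPM in naïve, vehicle and TD139 mice. After correction the counts were 8 higher and 6 lower for microglia, and 8 lower and 7 higher for rods. Of 8 Müller glia markers, 4 were higher in vehicle than in naïve mice (4 after correction) and 2 were lower in TD139 than in vehicle mice (5 after correction). Without naïve mouse 2, 0.00647% of 15447 tested genes were called higher in vehicle than in naïve mice before correction. Most of the microglia and Müller glia calls of that comparison were thus lost in that fit.
Of 7 cone markers, none was called in either comparison before correction, and after it 1 was lower after light and 2 were higher with TD139 against vehicle. Of 6 amacrine cell markers, 1 was lower with TD139 before and 0 after correction. Of 8 ganglion cell markers, 1 was lower with TD139 before correction, and after it 0 were lower and 1 was higher. Among 5 horizontal cell markers, 1 was higher after light (0 after correction), where 4.91% of all tested genes were (6.08% after correction). With TD139, 1 of them was higher (1 higher and 1 lower after correction). Of the retinal pigment epithelium markers, 4 of 5 were tested and 2 were lower with TD139 (1 after correction), and of 5 vascular markers 1 was higher and 1 lower (0 and 0 after correction). In the comparisons with vehicle mice, the part of these cell types in the levels of the 9 genes was not tested. When libraries were scaled to the markers of amacrine, horizontal and ganglion cells, Grm6, Nyx, Lrit3 and Pcp2 kept their calls for TD139 against vehicle, and Trpm1 (adjusted p = 0.077, edgeR), Gpr179 (0.052) and Prkca (0.061) did not. This scaling called 9.96% of all tested genes higher and 16.9% lower for TD139 against vehicle. It moved the median log2 fold change over all genes to −0.10 and that of the 9 genes from 0.44 to 0.36. Each marker had the same weight in it, also Onecut1, which had 47, 64 and 20 counts in TD139 mice 1 to 3. In vehicle mice Onecut1 had 16, 8 and 7 counts, and its part in the scaling was not tested. With library size alone the median over all genes was −0.10 as well, and Trpm1 (adjusted p = 0.050, edgeR) was the 1 gene of the 7 to lose its call. For TD139 against naïve mice the scaling to inner retina markers called 1 of the 9 genes, Pcp2, lower, where it called 1.31% of all tested genes higher and 16.5% lower and moved the median over all genes to −0.24.

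Over the 9 mice, the 9 genes did not form a single profile. The Pearson correlation of a gene with the mean of the other 8, each set to the same mean and spread, was 0.97 for Gpr179, 0.88 for Trpm1, 0.82 for Gnao1 and Lrit3, 0.79 for Prkca, 0.75 for Nyx and 0.67 for Grm6. It was −0.08 for Rgs11 and −0.86 for Pcp2. The 9 mice are of 3 groups, share the trend with length and are not alike, so these values are a description.
Among 13084 other genes whose mean count reached 50 per mouse, the 5 whose levels were most like the mean profile of the 9 genes were Ep400 (r = 0.99), Unc79 (0.97), A830010M20Rik (0.97), Gm15800 (0.97) and Bsn (0.97). The transcripts of Ep400, Unc79, Gm15800 and Bsn have 10608, 8874, 15482 and 15938 bases, against a median of 3000 over the tested genes, and their log2 fold changes for TD139 against vehicle were 0.49, 0.45, 0.67 and 0.59.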

How the data were processed

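Strand-marking poly(A) RNA libraries of 9 retinas were sequenced with single reads on 2 flow cells. The authors deposited, per mouse and flow cell, whole-number counts of reads per gene symbol from BaseSpace RNA Express, without scaling; per the labels the build was mm10. The aligner version, annotation and strand setting are not given in the sources used here. For each mouse the 2 runs were summed, so the mouse was the replicate. Reads on no gene (16.5 to 22.8%) and ambiguous reads (0.303 to 0.471%) were left out. The main fit used edgeR 4.0.16 in R 4.3.3 (filterByExpr, TMM, robust quasi-likelihood F test, 3 groups in 1 fit), with Benjamini-Hochberg adjustment over 15196 genes and a threshold of 0.05. SE is the log2 fold change divided by the square root of F. Alternatives were DESeq2 1.42.0, limma 3.58.1 voom with quality weights, other scalings and filters, single runs and single mice left out. A further alternative was a per-mouse spline (4 degrees of freedom) on transcript length and GC content as an offset. Lengths came from GENCODE M21 (98.36% of symbols joined) and upstream sequences from RefSeq on GRCm38.p6. The genes, the other lists and the tests were chosen with earlier results of these data known. From each list the first 2 genes and up to 3 called genes of highest mean count were to be named; some genes named by this rule are given only within the counts of their list, and some are not reported here. The steps were tested on simulated data.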

Additional observations from a re-analysis of the deposited data

How the results depend on the processing

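In the comparison of TD139 with vehicle mice, 6 of the 9 genes were called higher and 1 lower. Scaling to inner retina markers gave 3 higher, against 9.96% of all tested genes (17.2% before). The correction for length and GC content gave 0 lower (median 0.22 on the log2 scale), as it did with a replicate block added (median 0.23). Leaving out single mice gave 1 to 6 higher and 0 to 1 lower, the fewest without TD139 mouse 3, in fits that called 5.61% to 19.4% of all tested genes higher and 4.91% to 19% lower (6.8% and 5.62% without that mouse). For TD139 against naïve mice, where 0 were called, DESeq2 gave 5 higher and 1 lower (11.1% and 9.07% of the genes it adjusted), limma voom 6 higher and 1 lower (18.6% and 15.1% of all genes), and inner retina scaling 1 lower (16.5% of all genes) with a median of 0.14, where the median of all genes moved from −0.0023 to −0.24. The median after the correction was 0.17, with or without a replicate block, and leaving out single mice gave 0 to 4 higher and 0 to 1 lower (0 to 9.87% and 0 to 7.49% of all genes). For vehicle against naïve mice DESeq2 gave 1 lower (Lrit3), against 7.04% of the genes it adjusted.

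The deviations of same-numbered mice from their group means had correlations of −0.26 to 0.28. Differently numbered mice were not compared in this way, so these values cannot show whether the numbers pair the mice. In a paired fit with the replicate block alone, 6 genes were higher and 1 lower (median 0.44) for TD139 against vehicle, against 16% and 15.4% of all tested genes, and 0 were called in the other comparisons (medians −0.06 and 0.38), where up to 3.68% of all genes were called in a direction.

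Signs turned only for log2 fold changes that were not called before. For vehicle against naïve these were Trpm1 (0.058 with library size alone, −0.13 to 0.051 with single mice left out), Prkca (0.023; −0.17 to 0.063), Rgs11 (−0.14 with inner retina scaling, −0.069 with voom, −0.16 after correction, −0.16 with the block too; −0.058 to 0.10), Pcp2 (−0.10 with inner retina scaling, −0.070 after correction, −0.071 with the block too; −0.061 to 0.30) and Gnao1 (−0.12, −0.053 and −0.053 likewise; −0.0086 to 0.076). Rgs11 reached 0.38 after correction for TD139 against vehicle (−0.13 to 0.066 with single mice left out), and against naïve mice 0.23, 0.22 with the block and 0.024 in the second run alone (−0.095 to 0.098). Against naïve mice Prkca had −0.049 after correction and −0.050 with the block too, and Gnao1 −0.054 with inner retina scaling. Inner retina scaling and library size alone shift all genes nearly alike, and the signs that turned with them follow that shift: the median of all genes was −0.16 with inner retina scaling and 0.094 with library size alone for vehicle against naïve, and −0.24 with inner retina scaling for TD139 against naïve. The correction put the median of all genes at −0.11 for vehicle against naïve. The cause of the other turns was not tested.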
